A study of Homo sapiens with 12 samples.

Results

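The 10 genes described here make, lengthen and desaturate long-chain fatty acids, or control and use that output: SREBF1, ACLY, ACSS2, ACACA, FASN, ELOVL6, SCD, FADS1, FADS2 and LPIN1. They were chosen by name, and the rows carrying those gene symbols were taken from both deposited expression tables, which list 12372 genes between them. All 10 are listed for SW48, and 8 are listed for 23132/87. FADS1 and FADS2 are not listed for 23132/87, and are taken as below the listing limit of that table, a signal of about 1. Every listed signal is above 1 in all libraries, so a low signal in only some libraries could also keep a gene out.

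RNA was sequenced from 2 human cancer cell lines after 48 h of exposure. SW48 is a colorectal adenocarcinoma line and 23132/87 is a gastric adenocarcinoma line, both given as wild type. Each line was treated with 10 µM myricone C, a neolignan from Myristica fragrans, and compared with its vehicle, 0.1% DMSO. Each of the 4 groups (SW48 with myricone C, SW48 with vehicle, 23132/87 with myricone C, 23132/87 with vehicle) has 3 libraries described as biological replicates, 12 in all. All groups grew in the same medium with fetal bovine serum, which itself supplies lipids. There was 1 dose and 1 time, so neither the course nor the dose dependence of any change was measured.

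The values are expression signals whose unit is not given in the sources used here. They are not counts, so the sequencing depth behind them is unknown, and levels are compared below within a gene and not between genes. Bulk RNA was measured, so fewer cells of a kind and less RNA per cell cannot be told apart. General epithelial markers were listed for both lines (5 of 5), and their summed signal moved with treatment in opposite directions. It was 2785 to 3956 with myricone C and 1018 to 1789.9 with vehicle in SW48, and 2725 to 3765 with myricone C and 7654 to 10248 with vehicle in 23132/87. The keratin KRT8 had the highest signals of that list, at 1213 to 1864 with myricone C and 390 to 843 with vehicle in SW48, and 1302 to 1813 with myricone C and 3813 to 5319 with vehicle in 23132/87. Not every marker of that list moved with the sum. EPCAM was lower with myricone C in SW48 (168 to 211, against 214 to 243 with vehicle). CDH1 was higher with myricone C in 23132/87 (141 to 158, against 92.8 to 108 with vehicle). Of the gastric markers, 1 of 5 was listed in 23132/87 and 0 of 5 in SW48, and of the intestinal markers 4 of 6 were listed in each line. The summed signal of the listed intestinal markers was 20.0 to 27.4 with myricone C and 41.1 to 51.6 with vehicle in SW48, and 185 to 250.5 with myricone C and 310.1 to 358 with vehicle in 23132/87. The part of these markers in the results was not tested. SW48 myricone C replicate 1 stood apart, with 5.25% of its summed signal from genes of the 7SL and small nuclear RNAs. That share was 0.0477% to 0.201% for the 5 remaining libraries of SW48. Values without it are given beside each of the 10 genes in SW48. Among the companion genes named below, leaving it out changed 2 calls in SW48, those of AGPAT2 (0.48 on the log2 scale, then called) and NDUFAB1 (-0.37, then not called).

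In cells, cytosolic acetyl-CoA comes from citrate through ACLY or from acetate through ACSS2. ACACA carboxylates it to malonyl-CoA, and FASN condenses these units into palmitate, which ELOVL6 lengthens to stearate. SCD turns the saturated products into monounsaturated fatty acids, FADS2 and FADS1 desaturate polyunsaturated ones, and LPIN1 makes diacylglycerol for glycerolipids. SREBF1 encodes SREBP-1, a membrane-bound transcription factor of the endoplasmic reticulum. It is released when SCAP carries it to the Golgi for cleavage, and it drives many genes of this pathway. Tumour cells are known for making fatty acids themselves and for depending on desaturation to limit lipid saturation, a known trigger of stress in the endoplasmic reticulum.

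The promoters of SCD and SREBF1 are shown because these were the members whose response to myricone C differed between the lines. The stretches are RefSeq promoter sequence of build GRCh38.p14, cut so that each ends before the start of the gene in both RefSeq and GENCODE 29. Capitals mark the NF-Y box (CCAAT) and the GC box (GGGCGG, the Sp1-type motif) on either strand. The SCD stretch lies at chr10:100346983-100347123 on the plus strand, and the SREBF1 stretch at chr17:17837003-17837236 on the minus strand.
SCD: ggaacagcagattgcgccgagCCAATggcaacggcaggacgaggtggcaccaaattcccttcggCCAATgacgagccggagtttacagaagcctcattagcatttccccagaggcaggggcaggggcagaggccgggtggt
SREBF1: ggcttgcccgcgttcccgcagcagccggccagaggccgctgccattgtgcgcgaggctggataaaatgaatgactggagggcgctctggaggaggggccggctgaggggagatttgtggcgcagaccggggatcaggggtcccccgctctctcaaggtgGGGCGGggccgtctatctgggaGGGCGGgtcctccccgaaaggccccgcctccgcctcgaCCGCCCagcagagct

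The SCD stretch holds a pair of CCAAT letters, and the SREBF1 stretch holds 3 GC boxes and no CCAAT. The full SCD window also holds 2 GC boxes, which lie past the end of the stretch printed here. Windows of 300 bases around a RefSeq start were given for 9 of the 10 members, all but FASN, 16 windows in all, and were searched on both strands. Starts without a window were not searched. SREBF1 has 1 window, at the upstream end of the gene, though GENCODE 29 gives it 23 transcripts. The sterol regulatory element spelled TCACNCCAC was found in 0 of the 16 windows, and 1.12% of all 34943 promoter windows hold it. CCAAT was found in 7 of 16 windows, from 5 members (34.6% of all windows), and GGGCGG in 13 of 16, from 9 members (44.9% of all windows). The E-box CANNTG was found in 6 of 16 windows, from 5 members (68.7% of all windows), and the ATF4 and C/EBP composite TGATGNAA in 0 of 16 (3.62% of all windows). None of these motifs overlaps another in its letters at the sites marked above. A match is a stretch of letters and not a measured binding site.

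Across the pathway, the members did not move as a block. In SW48 4 of the 10 listed members rose with myricone C (SCD, LPIN1, SREBF1 and FADS1), 1 fell (ELOVL6) and 5 did not pass the test. In 23132/87 2 of the 8 listed members rose (LPIN1 and ACSS2), 3 fell (FASN, SREBF1 and ACLY) and 3 did not pass. The test was limma on log2(signal + 1) with Benjamini-Hochberg adjustment over the whole table of a line, at an adjusted p under 0.05, and every adjusted p below comes from it. Of the 10, LPIN1 alone was called with the same sign in both lines when each line was fitted by itself. SREBF1 was the only one called in opposite directions. With all 12 libraries in 1 fit, ACSS2 was also called as higher in both lines.

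These counts stand beside a broad response. In SW48 29.3% of all 11554 genes tested were called, 10.1% as higher and 19.2% as lower with myricone C. In 23132/87 46.5% of all 11070 genes were called, 23.3% as higher and 23.2% as lower. The median log2 change of the members was 0.22 in SW48, where that of all genes was -0.08, and -0.03 in 23132/87, where that of all genes was 0.01. In 23132/87 the share of members called, 5 of 8, is near the share of all genes, so the count itself shows nothing about these genes as a set there. In SW48 5 of 10 were called, and the call of FADS1 among them ended on leaving out any single library. The members as a set were not tested in either line. The share of called genes that were higher in SW48 was 34.6%, and it was 46.2% after quantile normalization, 42.4% after median-centred scaling and 46.4% after rescaling without small RNA and mitochondrial pseudogenes.

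**Figure D1:**
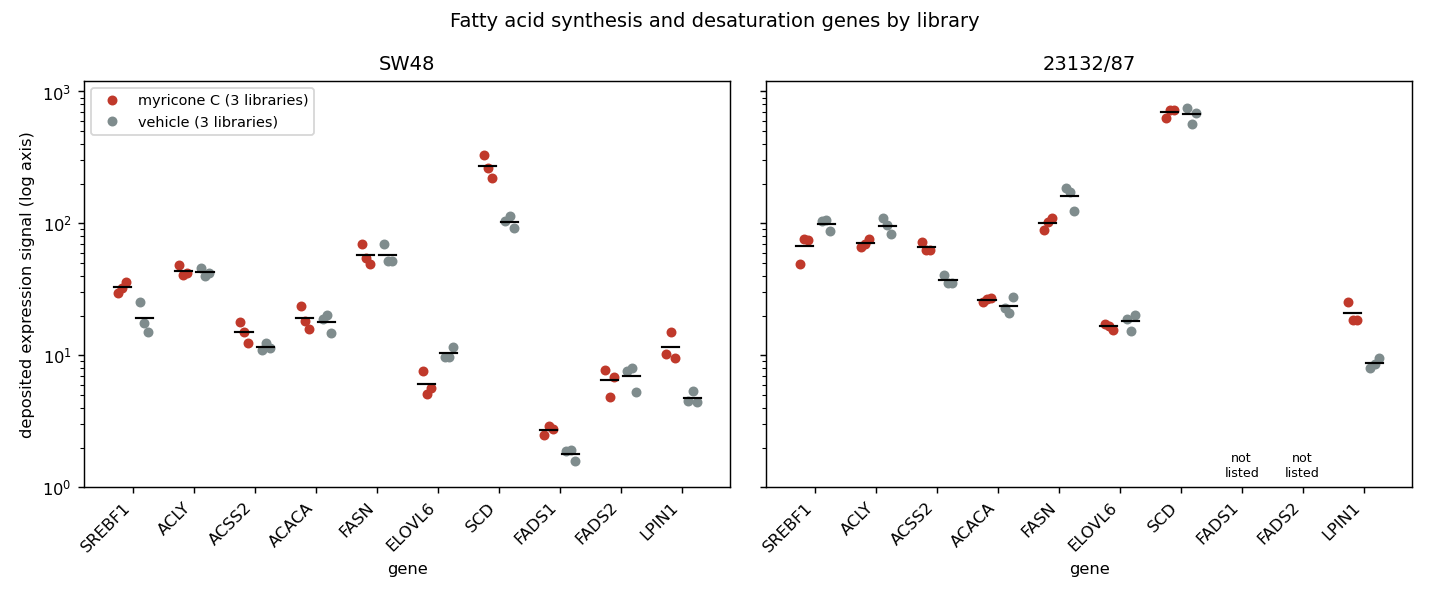
Deposited expression signal (log axis) of the 10 genes in each library, myricone C in red and vehicle in grey, with a bar at the mean of 3 libraries; SW48 is on the left and 23132/87 on the right. In SW48 the myricone C points of SCD (222 to 332) lie above all vehicle points (92.1 to 113), while in 23132/87 the SCD points overlap. SREBF1 points with myricone C lie above vehicle in SW48 and below it in 23132/87.

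SREBF1, the transcription factor of the pathway, moved in opposite directions in the lines. In SW48 it had a signal of 29.8, 32.4 and 35.9 in the myricone C libraries, against 25.2, 17.5 and 15.0 in the vehicle libraries. All 3 treated libraries lay above all 3 vehicle libraries, with means of 32.7 ± 3.05 with myricone C and 19.2 ± 5.28 with vehicle (SD, n = 3 each). It rose by 0.76 ± 0.17 on the log2(signal + 1) scale (SE, limma adjusted p = 0.00701), and by 0.83 without SW48 myricone C replicate 1.

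In 23132/87 SREBF1 had a signal of 49.0, 76.8 and 74.9 with myricone C, against 105, 105 and 86.9 with vehicle. Here every treated library lay below every vehicle library, and the means were 66.9 ± 15.6 with myricone C and 99.0 ± 10.4 with vehicle (SD, n = 3 each). The log2 change was -0.58 ± 0.17 (SE, limma adjusted p = 0.0164). The lowest treated library, replicate 1, carries part of it: without that library the change was -0.37, still called (limma adjusted p = 0.0194). Without vehicle replicate 2 the change was -0.53 and was not called (limma adjusted p = 0.0606). SREBF1 lies at chr17:17810399-17837002 on the minus strand (GRCh38, GENCODE 29), and overlaps RAI1 on the other strand. The library kit keeps strand, but the strand setting of the authors' counting is not given in the sources used here, so reads of overlapping genes may not have been told apart. The same limit holds for ACACA, ACLY, ACSS2, ELOVL6 and LPIN1, which also overlap annotation on the other strand (GGT7 for ACSS2).

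The acetyl-CoA suppliers ACLY and ACSS2 moved in opposite directions in 23132/87. ACLY, which cleaves citrate, had a signal of 66.2, 69.8 and 76.5 with myricone C, against 109.8, 96.5 and 82.9 with vehicle. The groups did not overlap, and ACLY fell by 0.43 ± 0.12 on the log2 scale (SE, limma adjusted p = 0.0130). The call rests on vehicle replicate 1, the highest library: without it the log2 change was -0.33 (limma adjusted p = 0.0501), and after quantile normalization it was -0.28 (limma adjusted p = 0.0531). ACSS2, which makes acetyl-CoA from acetate, had a signal of 72.6, 62.7 and 62.6 with myricone C, against 40.9, 35.3 and 35.4 with vehicle. Its mean was 1.77 times as high with myricone C (65.9 ± 5.72) as with vehicle (37.2 ± 3.19; SD, n = 3 each), and it rose by 0.81 ± 0.10 on the log2 scale (SE, limma adjusted p = 0.000224). This was the second member, beside LPIN1, to rise in 23132/87.

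Neither supplier passed the test in SW48. ACLY had a signal of 48.2, 40.9 and 42.0 with myricone C, against 45.8, 39.8 and 41.8 with vehicle, and these libraries overlap (log2 change 0.04 ± 0.12, 95% confidence interval -0.22 to 0.30, limma adjusted p = 0.831). ACSS2 had a signal of 17.8, 15.0 and 12.5 with myricone C, against 11.0, 12.3 and 11.4 with vehicle. Its treated libraries all lay above the vehicle ones, by a narrow margin, and the log2 change was 0.35 ± 0.15 (SE, limma adjusted p = 0.0954). The ACSS2 change passed the threshold without myricone C replicate 3 (0.47, limma adjusted p = 0.0478), and was 0.23 without replicate 1 (limma adjusted p = 0.271), when that of ACLY was -0.03. With all 12 libraries in 1 fit, the ACSS2 change in SW48 also passed (0.35, limma adjusted p = 0.0427).

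Of the core synthetic enzymes, FASN fell in 23132/87 and ACACA passed the test in neither line. FASN, the multienzyme that builds palmitate, had a signal of 89.8, 103 and 109.6 with myricone C in 23132/87, against 186, 173 and 124 with vehicle. The highest treated library lay below the lowest vehicle library, and the mean was 101 ± 10.0 with myricone C and 161 ± 32.9 with vehicle (SD, n = 3 each). FASN fell by 0.66 ± 0.15 on the log2 scale (SE, limma adjusted p = 0.00582), a call that was kept under all 16 alternatives tried (log2 change -0.83 to -0.50). Dropping the filter, 1 of the 16, could change nothing, as every listed signal is above 1. In SW48 FASN had a signal of 69.8, 54.6 and 49.0 with myricone C, against 70.0, 52.1 and 51.9 with vehicle. The SW48 libraries of both groups spread over the same range, with a log2 change of -0.01 ± 0.16 (SE, 95% confidence interval -0.35 to 0.34, limma adjusted p = 0.981), and -0.15 without myricone C replicate 1.

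ACACA encodes acetyl-CoA carboxylase, the committed step of synthesis. Its signal in SW48 was 23.6, 18.3 and 15.9 with myricone C, against 18.8, 20.3 and 14.9 with vehicle (log2 change 0.09 ± 0.17, limma adjusted p = 0.732). In 23132/87 it was 25.3, 26.7 and 27.3 with myricone C, against 23.0, 20.9 and 27.5 with vehicle (log2 change 0.15 ± 0.12, limma adjusted p = 0.299). In both lines the groups overlap, and the 95% confidence intervals of the change ran from -0.28 to 0.45 in SW48 and from -0.10 to 0.41 in 23132/87. Without SW48 myricone C replicate 1 the change in SW48 was -0.06.

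ELOVL6, the elongase that acts on palmitate, was the only member that fell in SW48. Its signal there was 7.55, 5.09 and 5.64 with myricone C, against 9.74, 9.69 and 11.6 with vehicle. All treated libraries were below all vehicle libraries, and the mean was 41.0% lower with myricone C (6.09 ± 1.29) than with vehicle (10.3 ± 1.07; SD, n = 3 each). The log2 change was -0.69 ± 0.16 (SE, limma adjusted p = 0.00795), and -0.83 without SW48 myricone C replicate 1. In 23132/87 ELOVL6 had a signal of 17.4, 16.7 and 15.6 with myricone C, against 18.9, 15.4 and 20.2 with vehicle. These groups overlap, and the log2 change was -0.12 ± 0.12 (SE, limma adjusted p = 0.449).

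SCD, the desaturase that makes oleate and palmitoleate, had the largest change of any member in SW48. It had a signal of 332, 261 and 222 in the SW48 libraries with myricone C, against 104, 113 and 92.1 in those with vehicle. The lowest treated library was well above the highest vehicle library, and the mean was 2.64 times as high with myricone C (272 ± 55.9) as with vehicle (103 ± 10.4; SD, n = 3 each). SCD rose by 1.38 ± 0.15 on the log2 scale (SE, limma adjusted p = 0.00018), and by 1.22 without SW48 myricone C replicate 1, its highest library. In 23132/87 SCD had a signal of 633, 721 and 729 with myricone C, against 754, 569.9 and 688 with vehicle. Its groups overlap there, with a log2 change of 0.06 ± 0.13 (SE, 95% confidence interval -0.24 to 0.35, limma adjusted p = 0.750). Even with myricone C, the mean SCD signal of SW48 was 0.391 times that of 23132/87, and with vehicle it was 0.153 times. The tables were filtered separately and how they were normalized is not given, so levels set across the lines are descriptions with no test. SCD lies at chr10:100347124-100364834 on the plus strand (GRCh38, GENCODE 29) and overlaps no other annotated gene.

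FADS1 and FADS2, the desaturases of polyunsaturated fatty acids, could be followed only in SW48, where FADS1 was near the listing limit. FADS1 had a signal of 2.48, 2.89 and 2.79 with myricone C, against 1.87, 1.91 and 1.57 with vehicle. The groups did not overlap, the mean was 1.53 times as high with myricone C as with vehicle, and the log2 change of 0.42 ± 0.14 just passed the threshold (SE, limma adjusted p = 0.0487). Leaving out any 1 of the 6 SW48 libraries ended that call (log2 change 0.36 to 0.47, limma adjusted p = 0.0529 to 0.156), and so did a pseudocount of 5 (log2 change 0.19). FADS2 had a signal of 7.72, 4.84 and 6.86 with myricone C, against 7.56, 7.97 and 5.29 with vehicle, with overlapping groups (log2 change -0.09 ± 0.19, limma adjusted p = 0.752, and -0.21 without myricone C replicate 1). The genes lie on chromosome 11 on opposite strands, FADS1 at 61799625 to 61829318 and FADS2 at 61792980 to 61867354 (GRCh38, GENCODE 29), and their spans overlap. FADS2 also overlaps FEN1 on the same strand. Whether reads of FADS1 and FADS2 were told apart depends on the strand setting, which is not given. Strand cannot separate FADS2 from FEN1.

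LPIN1, the phosphatidate phosphatase that yields diacylglycerol, rose by a like amount in both lines. In SW48 it had a signal of 10.2, 15.1 and 9.58 with myricone C, against 4.54, 5.40 and 4.41 with vehicle. In 23132/87 it had a signal of 25.6, 18.6 and 18.5 with myricone C, against 7.95, 8.67 and 9.53 with vehicle. No treated library of either line overlapped its vehicle libraries. The mean with myricone C was 2.43 times that with vehicle in SW48 (11.6 ± 3.02 and 4.78 ± 0.539; SD, n = 3 each) and 2.40 times in 23132/87 (20.9 ± 4.05 and 8.72 ± 0.793). LPIN1 rose by 1.11 ± 0.17 in SW48 (SE, limma adjusted p = 0.00103) and by 1.16 ± 0.14 in 23132/87 (SE, limma adjusted p = 0.000173) on the log2 scale. The SW48 rise was 1.18 without myricone C replicate 1.

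**Figure D2:**
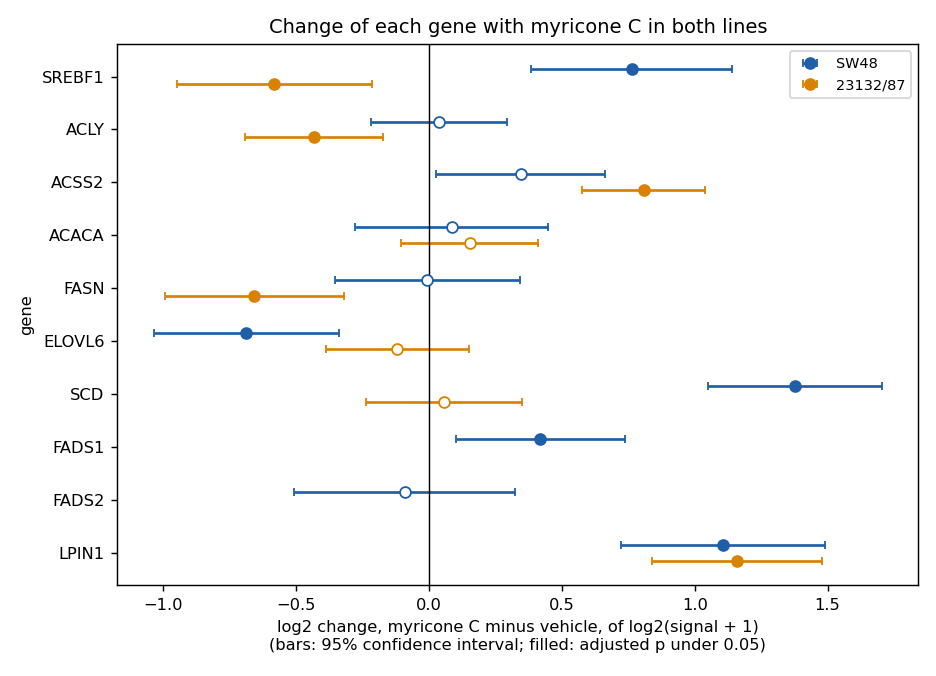
Log2 change of each gene with myricone C relative to vehicle, on the log2(signal + 1) scale, in SW48 (blue) and 23132/87 (orange), with bars for the 95% confidence interval and filled points where the adjusted p was under 0.05. SREBF1 lies to the right of 0 in SW48 (0.76) and to the left in 23132/87 (-0.58), SCD is filled in SW48 (1.38) with no filled point in 23132/87, and the LPIN1 points nearly coincide (1.11 and 1.16).

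The difference between the lines was tested directly, as the line-by-treatment term of 1 limma fit over the 10252 genes listed in both tables. It passed the threshold for 2 of the 8 members that could be tested, SCD and SREBF1, both with the SW48 change above the 23132/87 change. Over all genes 12.8% passed, 5.34% with the SW48 change above and 7.43% with it below. The SW48 change exceeded the 23132/87 change by 1.32 ± 0.20 for SCD (SE, limma adjusted p = 0.00121) and by 1.34 ± 0.26 for SREBF1 (SE, limma adjusted p = 0.00457), on the log2 scale. Without SW48 myricone C replicate 1 these differences were 1.17 and 1.41, and both were called under all 22 alternatives tried, with ranges of 1.17 to 1.46 for SCD and 1.14 to 1.55 for SREBF1. Dropping the filter, 1 of the 22, could change nothing, as every listed signal is above 1. Among all called genes, 41.8% had the SW48 change above, a share that was 53.5% after quantile normalization and 57.1% after median-centred scaling.

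The other 6 members did not pass the test of the difference. FASN, called in 23132/87 alone, differed by 0.65 ± 0.24 (SE, 95% confidence interval 0.15 to 1.15, limma adjusted p = 0.0845), and ACLY by 0.47 ± 0.16 (0.12 to 0.82, limma adjusted p = 0.0710). ELOVL6, called in SW48 alone, differed by -0.57 ± 0.20 (SE, 95% confidence interval -0.99 to -0.14, limma adjusted p = 0.0741), and ACSS2 by -0.46 ± 0.18 (-0.84 to -0.09, limma adjusted p = 0.0954). These 4 genes are therefore not shown to respond differently in the lines, although their calls within the lines differ. Each passed under some alternatives. FASN passed without 23132/87 vehicle replicate 3 (0.83) and without SW48 vehicle replicate 1 (0.79), and ACLY passed without 23132/87 vehicle replicate 3 (0.57) and after median-centred scaling (0.55). Without SW48 myricone C replicate 1, ELOVL6 (-0.71) and ACSS2 (-0.58) passed. LPIN1 differed by -0.05 ± 0.23, with a 95% confidence interval of -0.55 to 0.45 (limma adjusted p = 0.909), and ACACA by -0.07 ± 0.21, with an interval of -0.52 to 0.38 (limma adjusted p = 0.864).

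**Figure D3:**
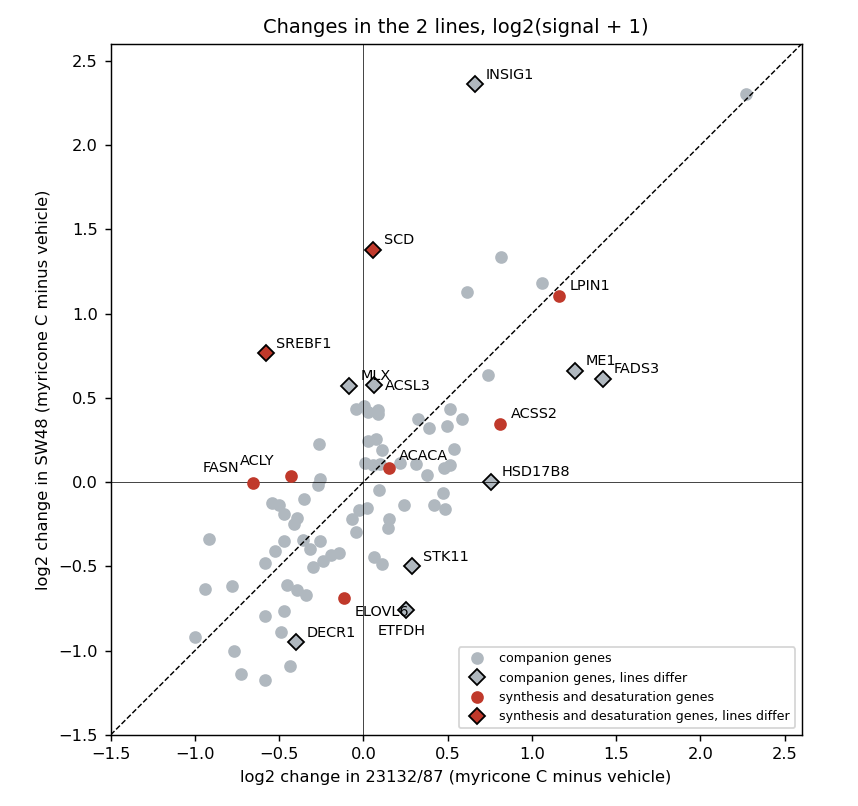
Log2 change with myricone C relative to vehicle in SW48 (vertical) against that in 23132/87 (horizontal) for genes listed in both tables, with synthesis and desaturation genes in red, companion genes of the lipid lists in grey, diamonds where the test of the difference between lines passed, and a dashed line of equal change. SCD (1.38 in SW48 and 0.06 in 23132/87), SREBF1 (0.76 and -0.58) and INSIG1 (2.36 and 0.66) lie far above the dashed line, while LPIN1 lies on it.

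Of the genes tied to control by SREBP, LXR or the carbohydrate-responsive factor ChREBP, those called were all higher. In SW48 4 of 11 rose and 0 fell (median log2 change 0.33), and in 23132/87 4 of 11 rose and 0 fell (median 0.09), where 10.1% of all genes in SW48 and 23.3% in 23132/87 were called as higher. INSIG1, which holds SCAP and SREBP in the endoplasmic reticulum and is itself a known SREBP target, had a signal of 119.6, 184 and 104 with myricone C in SW48, against 21.6, 26.9 and 26.3 with vehicle. In 23132/87 INSIG1 had a signal of 155, 99.9 and 93.2 with myricone C, against 79.7, 60.6 and 74.5 with vehicle. The groups did not overlap in either line, and the rise was 2.36 ± 0.19 in SW48 (SE, limma adjusted p = 3.5e-05) and 0.66 ± 0.18 in 23132/87 (SE, limma adjusted p = 0.0142). The rise in 23132/87 was 0.43 without myricone C replicate 1, its highest library, and was not called without vehicle replicate 2 (0.55). The lines differed by 1.70 ± 0.29 for INSIG1 (SE, limma adjusted p = 0.00221), in the same direction as SCD and SREBF1. SREBF2, the paralogue that drives cholesterol synthesis, rose by 0.44 ± 0.12 in SW48, a call that ended on leaving out replicate 3 of vehicle (0.36) or of myricone C (0.40), and by 0.51 ± 0.10 in 23132/87. MLX, the partner of the carbohydrate-responsive factor ChREBP, rose by 0.57 ± 0.14 in SW48, a call lost without myricone C replicate 2 (0.50), and had a log2 change of -0.08 ± 0.12 in 23132/87.

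Genes that supply precursors such as citrate, supply NADPH or control the carboxylase were next. In SW48 4 of 10 rose and 2 fell (median log2 change 0.19), and in 23132/87 5 of 9 rose and 0 fell (median 0.54). Over all genes 10.1% rose and 19.2% fell in SW48, and 23.3% rose and 23.2% fell in 23132/87. IDH1 and ME1, cytosolic sources of NADPH, rose in both lines. IDH1 rose by 1.33 ± 0.15 in SW48 and by 0.82 ± 0.11 in 23132/87, and ME1 by 0.66 ± 0.13 in SW48 and by 1.26 ± 0.13 in 23132/87 (SE). PRKAB2, a regulatory subunit of the AMP-activated kinase that inhibits ACACA, rose by 1.18 ± 0.17 in SW48 and by 1.06 ± 0.14 in 23132/87. STK11, the kinase LKB1 that activates it, fell by 0.50 ± 0.15 in SW48 and had a log2 change of 0.29 ± 0.13 in 23132/87 (limma adjusted p = 0.0839). The STK11 call in SW48 ended on leaving out replicate 1 (-0.43) or 3 (-0.54) of vehicle, or replicate 2 of myricone C (-0.36).

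The next list holds other elongases, desaturases and their electron donors. In SW48 1 of 14 rose and 6 fell (median log2 change -0.34), and in 23132/87 2 of 11 rose and 5 fell (median -0.26). In SW48 falls also outnumbered rises over all genes, at 19.2% and 10.1%. The shares over all genes in 23132/87 were 23.2% lower and 23.3% higher. SCD5, the other stearoyl-CoA desaturase, fell by 0.88 ± 0.16 in SW48, where SCD rose, and is not listed for 23132/87. CYB5R3, the reductase that passes electrons to cytochrome b5 and so to the desaturases, fell by 0.77 ± 0.12 in SW48 and by 0.47 ± 0.09 in 23132/87. CYB5A, the cytochrome itself, fell by 0.92 ± 0.17 in 23132/87 and had a log2 change of -0.34 ± 0.13 in SW48 (limma adjusted p = 0.0768). FADS3, a desaturase-family gene beside FADS1 and FADS2, rose by 1.42 ± 0.15 in 23132/87, or by 0.90 with a pseudocount of 5. Its rise in SW48, 0.61 ± 0.18, ended on leaving out replicate 1 (0.57) or 3 (0.62) of vehicle, or replicate 2 (0.62) or 3 (0.41) of myricone C.

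Enzymes that activate fatty acids and assemble glycerolipids moved in both directions. In SW48 4 of 17 rose and 2 fell (median log2 change -0.13), and in 23132/87 2 of 15 rose and 4 fell (median 0.01), beside the shares of all genes given above. GPAT3, a glycerol-3-phosphate acyltransferase, rose most. Its mean signal was 19.5 ± 8.15 with myricone C and 2.94 ± 0.285 with vehicle in SW48, and 15.8 ± 2.16 with myricone C and 2.65 ± 1.33 with vehicle in 23132/87 (SD, n = 3 each). GPAT3 rose by 2.30 ± 0.24 in SW48 (SE, limma adjusted p = 0.000154) and by 2.27 ± 0.26 in 23132/87 (SE, limma adjusted p = 0.000106), or by 1.45 in 23132/87 with a pseudocount of 5. ACSL3, which activates fatty acids at the endoplasmic reticulum and lipid droplets, rose by 0.58 ± 0.13 in SW48 and had a log2 change of 0.07 ± 0.10 in 23132/87. AGPAT2, the next acyltransferase, rose by 0.58 ± 0.13 in 23132/87 and had a log2 change of 0.37 ± 0.15 in SW48 (limma adjusted p = 0.0848). DGAT2, which completes triglyceride, fell by 1.18 ± 0.19 in SW48, or by 0.64 with a pseudocount of 5. Its fall in 23132/87, 0.58 ± 0.19 (0.36 with a pseudocount of 5), ended on leaving out replicate 1 (-0.47) or 2 (-0.56) of vehicle, or replicate 1 (-0.41) or 2 (-0.60) of myricone C.

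Among the listed fatty acid oxidation genes, falls outnumbered rises in each line. In SW48 13 of 19 fell and 1 rose (median log2 change -0.51), and in 23132/87 10 of 19 fell and 2 rose (median -0.35). Beside these, 19.2% of all genes in SW48 and 23.2% in 23132/87 were called as lower. ECHS1, the enoyl-CoA hydratase, had a mean signal of 78.9 ± 12.7 with myricone C and 149.6 ± 14.9 with vehicle in SW48, and 59.4 ± 6.37 with myricone C and 119 ± 3.04 with vehicle in 23132/87 (SD, n = 3 each). It fell by 0.92 ± 0.13 in SW48 and by 1.00 ± 0.10 in 23132/87 on the log2 scale. ACADS, the short-chain acyl-CoA dehydrogenase, fell by 1.14 ± 0.18 in SW48 and by 0.73 ± 0.16 in 23132/87, and HADH by 0.64 ± 0.14 in SW48 and by 0.94 ± 0.11 in 23132/87. ACAA2, the thiolase, fell by 1.09 ± 0.16 in SW48 and had a log2 change of -0.44 ± 0.18 in 23132/87 (limma adjusted p = 0.0648).

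**Figure D4:**
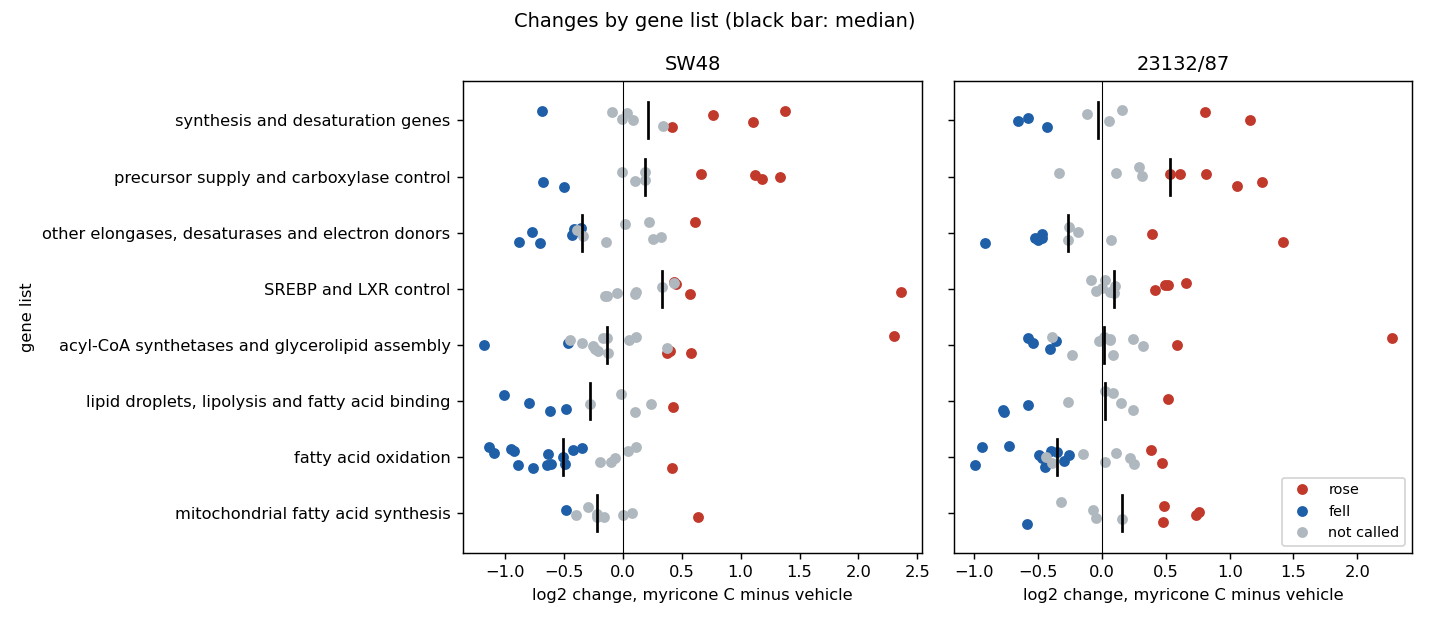
Log2 change with myricone C relative to vehicle for each listed gene (points) in the synthesis and desaturation set and in 7 companion lists, in SW48 (left) and 23132/87 (right), red where called higher, blue where called lower, with a black bar at each list's median. The oxidation list lies mostly left of 0 in both lines (medians -0.51 and -0.35), while the synthesis and desaturation genes spread to both sides (medians 0.22 and -0.03).

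The genes whose signal followed each of SREBF1, FASN and SCD most closely were found over the 12 libraries, each centred on the mean of its line, among the 10252 genes listed in both tables. SREBF1 was most like SHB (Pearson r = 0.948), CCDC88C (0.944) and FGFRL1 (0.929). FASN was most like ACLY (0.963), another member, then MVP (0.946). SCD was most like EIF4G3 (0.915), SERINC5 (0.911) and ACSL3 (0.897). These r values describe 12 libraries that share their line and treatment, and carry no p.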

How the data were processed

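The deposited tables, 1 per line, give an expression signal per gene; what unit, counter, annotation and normalization the authors used is not given in the sources used here. Per the submitters' processing notes, FastQC and STAR were run (versions not given) on GRCh38, and per the labels' protocols the libraries were stranded mRNA libraries. Every deposited signal is above 1 (library minima 1.00003 to 1.01221), and summed signals were 464037 to 536594. Values were tested on log2(signal + 1), which understates changes of low genes, with limma 3.58.1 with a mean-variance trend (R 4.3.3), a mean of at least 1, Benjamini-Hochberg adjustment over the whole table, and no covariates. A line-by-treatment term over genes matched by Ensembl ID tested the difference, as the SW48 change minus the 23132/87 change. The fits were tested on simulated data. The members and all lists were chosen with earlier results of these data known. All 10 members are named, with the 2 largest called changes of each companion list in each line, every companion called in the difference, and the 3 genes most like SREBF1, FASN and SCD, of which 1 is not reported here. Alternatives changed the scaling, trend, pseudocount (0.1 or 5), filter, fit, replicate block and each library in turn. Dropping the filter left the fits as they were, since every deposited signal is above 1, and so added no check.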

Additional observations from a re-analysis of the deposited data

Results flagged for a closer look

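The following genes were picked out because the test of the difference between the lines passed (limma line-by-treatment term, adjusted p under 0.05, SW48 change minus 23132/87 change on the log2 scale). Among the synthesis and desaturation genes these were SCD (1.32) and SREBF1 (1.34), whose calls held under every alternative tried. Among the companion genes, INSIG1 (1.70), STK11 (-0.79) and ETFDH (-1.01) were called whichever single library was left out. ETFDH, which hands electrons from fatty acid oxidation to the respiratory chain, fell by 0.76 ± 0.14 in SW48 and had a log2 change of 0.25 ± 0.13 in 23132/87.

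The other companion differences lost their calls when most single libraries were left out. MLX (0.66) lost its call for 7 of the 12 libraries (0.55 to 0.68), all but SW48 myricone C replicate 1, SW48 vehicle replicates 1 and 3, 23132/87 myricone C replicate 1 and 23132/87 vehicle replicate 1. DECR1 (-0.55) lost it for 8 (-0.56 to -0.47), all but replicate 1 of each SW48 group, 23132/87 myricone C replicate 1 and 23132/87 vehicle replicate 3. ACSL3 (0.51) lost it for 9 (0.45 to 0.54), all but SW48 myricone C replicate 3, SW48 vehicle replicate 2 and 23132/87 vehicle replicate 1. For 10 libraries each, the call was lost for ME1 (-0.59, then -0.66 to -0.49), FADS3 (-0.81, then -0.87 to -0.61) and HSD17B8 (-0.76, then -0.79 to -0.60). The exceptions were SW48 myricone C replicate 3 and 23132/87 vehicle replicate 3 for ME1, SW48 myricone C replicate 3 and 23132/87 vehicle replicate 1 for FADS3, and SW48 vehicle replicate 2 and 23132/87 vehicle replicate 1 for HSD17B8. The direction of each stayed the same in those fits.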

How the results depend on the processing

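No called result changed direction under any alternative tried. The number of members called in SW48 was 5 as reported, 2 with a signal of at least 10 in at least 3 libraries (6 members tested) and 3 with a replicate block by column number, and 4 to 5 leaving out each library. In 23132/87 5 members were called as reported and 4 to 5 leaving out each library. In the difference between lines 2 members were called as reported and 2 to 4 leaving out each library, with 4 without 23132/87 vehicle replicate 3 or SW48 myricone C replicate 1. Over all genes, leaving out each library gave 2199 to 3656 calls in SW48 (3383 as reported), the lowest without myricone C replicate 2, and 831 to 1413 in the difference (1309 as reported), the lowest without SW48 vehicle replicate 2. The difference gave 812 calls under the stricter filter and 770 with a replicate block by title number. Same-numbered replicates showed no clear shared deviation (r -0.18 to -0.07 in SW48 and -0.27 to 0.11 in 23132/87). So few pairs cannot tell whether they share more than a number. SW48 column numbers give only 2 shared pairs (r 0.15 and 0.27), which cannot tell either. The replicate block ended the calls of FADS1 and, by column number, of ELOVL6 in SW48 (-0.68, limma adjusted p = 0.0533), and changed no other member's call within a line, while by column number FASN passed in the difference (0.90). The causes were not tested. Scaling moved the median of all genes by less than 0.1. Depth is unknown, so its limits could not be set.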

Other observations

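Lists farther from synthesis also held called genes. Of 9 lipid droplet, lipolysis and fatty acid binding genes, 1 rose and 4 fell in SW48 (median log2 change -0.28), and 1 rose and 3 fell in 23132/87 (median 0.02). Across all genes, 10.1% rose and 19.2% fell in SW48, and 23.3% rose and 23.2% fell in 23132/87. DBI, the acyl-CoA binding protein, fell by 1.01 ± 0.14 in SW48 and by 0.77 ± 0.14 in 23132/87 (SE). FABP5, a fatty acid binding protein, fell by 0.78 ± 0.12 in 23132/87 and by 0.62 ± 0.15 in SW48, where the call was lost without vehicle replicate 3 (-0.51). PLIN3, a droplet coat protein, fell by 0.58 ± 0.12 in 23132/87 and by 0.80 ± 0.20 in SW48, where the call was lost without myricone C replicate 2 (-0.63).

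Of 9 mitochondrial fatty acid synthesis genes, 1 rose and 1 fell in SW48 (median log2 change -0.22), and 4 rose and 1 fell in 23132/87 (median 0.15). The SW48 counts stand beside 10.1% higher and 19.2% lower over all genes, and those of 23132/87 beside 23.3% and 23.2%. LIAS, which makes lipoic acid from the product of that pathway, rose by 0.64 ± 0.15 in SW48 and by 0.74 ± 0.10 in 23132/87. NDUFAB1, the mitochondrial acyl carrier protein, fell by 0.59 ± 0.12 in 23132/87. Its fall in SW48, 0.48 ± 0.14, ended on leaving out replicate 1 (-0.48) or 3 (-0.42) of vehicle, or replicate 1 (-0.37) or 2 (-0.45) of myricone C. HSD17B8, a subunit of the ketoacyl reductase, rose by 0.76 ± 0.15 in 23132/87 and had a log2 change of 0.00 ± 0.16 in SW48.

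Among markers of other cell types, 0 of 3 leukocyte markers were listed in SW48 and 1 of 3 in 23132/87 (CD68, 12.9 to 14.8 with myricone C and 3.95 to 6.48 with vehicle). Of 5 mesenchymal markers, 1 was listed in each line, SNAI1 in SW48 and COL1A1 in 23132/87. Their part in the results was not tested.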
